A study of Mus musculus with 4 samples.

Results

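The clustered histone genes supply most of the histone protein that a dividing cell packs its new DNA with, and they were examined here in the tumor cells of a mouse model given the HSP90 inhibitor SP11. Members were all genes of the feature list whose symbol starts with Hist1h, Hist2h, Hist3h or Hist4h and that had at least 10 unique molecular identifiers (UMIs, each 1 captured RNA molecule) over the 4 libraries. Of 67 genes with such a symbol among 32285 genes, 59 were members, of which 5 encode H1, 16 H2A, 15 H2B, 12 H3 and 11 H4. Just inside the limit stood Hist1h3h with 12 UMIs and just outside it Hist1h4b with 7 UMIs, the highest of the 8 genes left out. The model was Dalton's lymphoma ascites (DLA), a transplantable mouse tumor line that was injected intraperitoneally into Swiss albino mice. Tumors came from 2 control libraries, Control 1 and Control 2, labeled untreated but called vehicle controls in the study's supplement, and from 2 libraries of mice that were named Treated 1 and Treated 2 here and had taken SP11 by mouth for 17 days, at 30 mg/kg. All 4 tumors were dissociated with their host cells and read by single-cell RNA sequencing from the 3′ end of the RNA. No source gives the age of the mice or says that each library is 1 animal, so p-values measure only the spread between these libraries.

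A nucleosome wraps DNA around an H3-H4 tetramer and H2A-H2B dimers, and the linker histone H1 binds where DNA enters and leaves it. Most clustered genes are transcribed in S phase, when the genome is copied. Their mRNAs typically lack introns and, unlike other mRNAs, end in a stem-loop that the stem-loop binding protein holds, in place of a poly(A) tail. Because 3′ libraries are primed on runs of A, they capture only those histone RNAs that carry a poly(A) tail or an A-rich stretch, so the levels below are levels of captured RNA. A UMI counts 1 molecule whatever its length, and levels are given as CPM, the UMIs of a gene in the tumor cells of a library scaled so that all genes sum to 1000000. Pairs of values follow the library numbers, and 4 values in a row give the controls first.

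The members lay in 3 clusters and 2 single sites of the mouse genome (GRCm38). On chromosome 13, 21 members lay between positions 21715763 and 22043676 and 27 between 23531050 and 23764406, with 9 more on chromosome 3 between 96219865 and 96270132. Hist3h2a stood alone on chromosome 11 and Hist4h4 on chromosome 6. In 10 pairs, an H2A and an H2B gene pointed away from each other with 176 to 302 bases between their starts.

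The stem-loop is shown for leading members because it is the mRNA end that sets these genes apart. The search was for a stem of 6 base pairs that starts with GG, around a loop of 4 bases that holds TT. It covered the first 120 bases after the stop codon in a chosen annotated transcript of each gene. Only the 46 of 59 members with a 3′ UTR of at least 30 bases were searched, and 39 had a match. The 13 members not searched include 11 with no annotated 3′ UTR, the leading H1 gene Hist1h1b among them. A member without a match is therefore not shown to lack a stem-loop, and the shared GG and TT follow from the search. Capitals mark the paired stem, and positions are in GRCm38.
Hist1h1e, chr13:23621782-23621797, minus strand: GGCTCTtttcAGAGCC
Hist1h2ae, chr13:23570668-23570683, minus strand: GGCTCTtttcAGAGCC
Hist2h2ac, chr3:96220418-96220433, minus strand: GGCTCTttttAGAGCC
Hist1h3e, chr13:23561903-23561918, minus strand: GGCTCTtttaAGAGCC
Hist1h4d, chr13:23581950-23581965, plus strand: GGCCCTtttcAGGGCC
The form of Hist1h1e and Hist1h2ae was shared by 23 members of the families H1, H2A, H2B and H3. The form of Hist1h4d, with another base pair in the stem, occurred in 6 members, all of them H4 genes. A possible poly(A) signal, the letters AATAAA, lay in the annotated 3′ UTR of 16 members.

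Promoters are shown for the 3 members that lead the H1, H2A and H4 families, since nearly all members shared the directions reported below. They are RefSeq promoters of GRCm38.p6, from 250 bases before to 50 bases after the start, and matched 53 of 59 members. Capitals mark matches on either strand to TATAAA, the core of the TATA box, to CCAAT, which the factor NF-Y binds, and to ATTTGCAT, the octamer that POU factors bind.
Hist1h1b, chr13:21780576-21780875, minus strand: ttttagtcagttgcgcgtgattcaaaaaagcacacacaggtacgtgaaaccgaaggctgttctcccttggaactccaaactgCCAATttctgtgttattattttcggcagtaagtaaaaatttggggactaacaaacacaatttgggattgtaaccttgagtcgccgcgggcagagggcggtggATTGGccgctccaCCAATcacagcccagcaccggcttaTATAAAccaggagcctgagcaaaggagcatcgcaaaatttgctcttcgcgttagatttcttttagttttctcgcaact
Hist1h2ae, chr13:23571171-23571470, minus strand: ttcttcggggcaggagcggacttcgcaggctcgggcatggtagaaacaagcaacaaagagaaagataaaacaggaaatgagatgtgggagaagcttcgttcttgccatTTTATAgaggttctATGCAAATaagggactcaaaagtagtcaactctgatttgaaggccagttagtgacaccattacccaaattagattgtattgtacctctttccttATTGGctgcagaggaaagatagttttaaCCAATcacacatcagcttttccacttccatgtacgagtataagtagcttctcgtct
Hist1h4d, chr13:23581318-23581617, plus strand: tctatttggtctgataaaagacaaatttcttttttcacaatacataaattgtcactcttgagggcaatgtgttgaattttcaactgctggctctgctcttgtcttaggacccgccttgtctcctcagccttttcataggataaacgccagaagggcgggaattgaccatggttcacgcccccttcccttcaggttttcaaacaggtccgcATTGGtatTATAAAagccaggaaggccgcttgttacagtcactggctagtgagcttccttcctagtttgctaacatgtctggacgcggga
TATAAA occurred in 30 of 53 member promoters (56.6%) against 13.6% of all 32851 promoters of this length. CCAAT occurred in 46 (86.8%) against 37.4% of all. All 43 members outside H4 had CCAAT, against 3 of 10 H4 genes. The octamer was found in 11 members (20.8%) against 1.74% of all promoters, and these were 6 H2A and 5 H2B genes. Divergent pairs share part of their window, so that the octamer of Hist1h2ae is also that of its partner Hist1h2bg. No matches of different motifs overlapped in a member. A match describes these letters only, and was not tested against the levels.

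Tumor cells were taken as barcodes with at least 200 genes, at most 10% mitochondrial UMIs and at least 5 UMIs of the keratins Krt8 and Krt18, and numbered 845 and 528 in the control libraries, 1256 and 582 in the treated ones. They held 9477943 to 12287495 UMIs per library, with a median of 8891.5 to 19843 UMIs per cell. These cells made up 92.2% and 93.3% of the kept barcodes of the controls against 68.6% and 53.3% of the treated libraries, and they held 97.3% to 99.2% of all histone UMIs. Although the labels give the cell type as lymphoma, the gate itself fixed that they express Krt8 and Krt18. Of the other 8 keratin and epithelial markers, Krt7 stood at 1113 to 1799 CPM, Krt19 at 394 to 719 and Epcam at 194 to 227, while Cldn4, Cldn6 and Cdh1 were at 10.6 CPM or below and Cldn3 and Cldn7 at 0 in all 4 libraries. The B cell marker Cd79b was at 0 in both controls. Markers of other cells differed between the groups within the tumor cells. The 5 erythroid markers, all detected in every library, summed to 267 and 178 CPM in the controls and to 10615 and 4740 in the treated libraries. The 6 B markers, of which 2 were detected in every library, summed to 1.04 and 1.48 against 111 and 57.8. Of the 9 macrophage and monocyte markers, 8 were detected in every library, with sums of 10.6 and 10.4 against 94.5 and 29.3, and Adgre1 was at 0 in Control 1. Of the 5 neutrophil markers, 4 were detected in every library, with sums of 37.1 and 47.5 against 154 and 171. Replicates differed beyond sampling noise, with a chi-square per degree of freedom of 8.10 between the controls and 14.2 between the treated libraries. Libraries shared 60 to 359 barcodes per pair, of which at most 3 were most like their namesake.

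Histone RNA in the tumor cells was concentrated in few members. Hist1h1b, a linker histone, alone gave 29.4% of the 59 members' UMIs, and 7 members gave 81.0%. Hist1h4d, 1 of 11 H4 genes, gave 83.0% of the H4 UMIs, while the leading H2B gene gave 26.2% of those of its family. H1 was the family with the most captured RNA, at 1670 and 1596 CPM in the control libraries against 1388 and 852 under SP11. H2A came next, at 850, 1178, 617 and 435 in the same order. H4 stood at 544, 514, 366 and 195. The H3 genes stood at 220, 259, 158 and 92.2 and the H2B genes at 216, 204, 131 and 74.2, with H3 the higher in every library. Since the kit does not capture stem-loop ends, this order is one of captured RNA and not of histone mRNA.

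**Figure D1:**
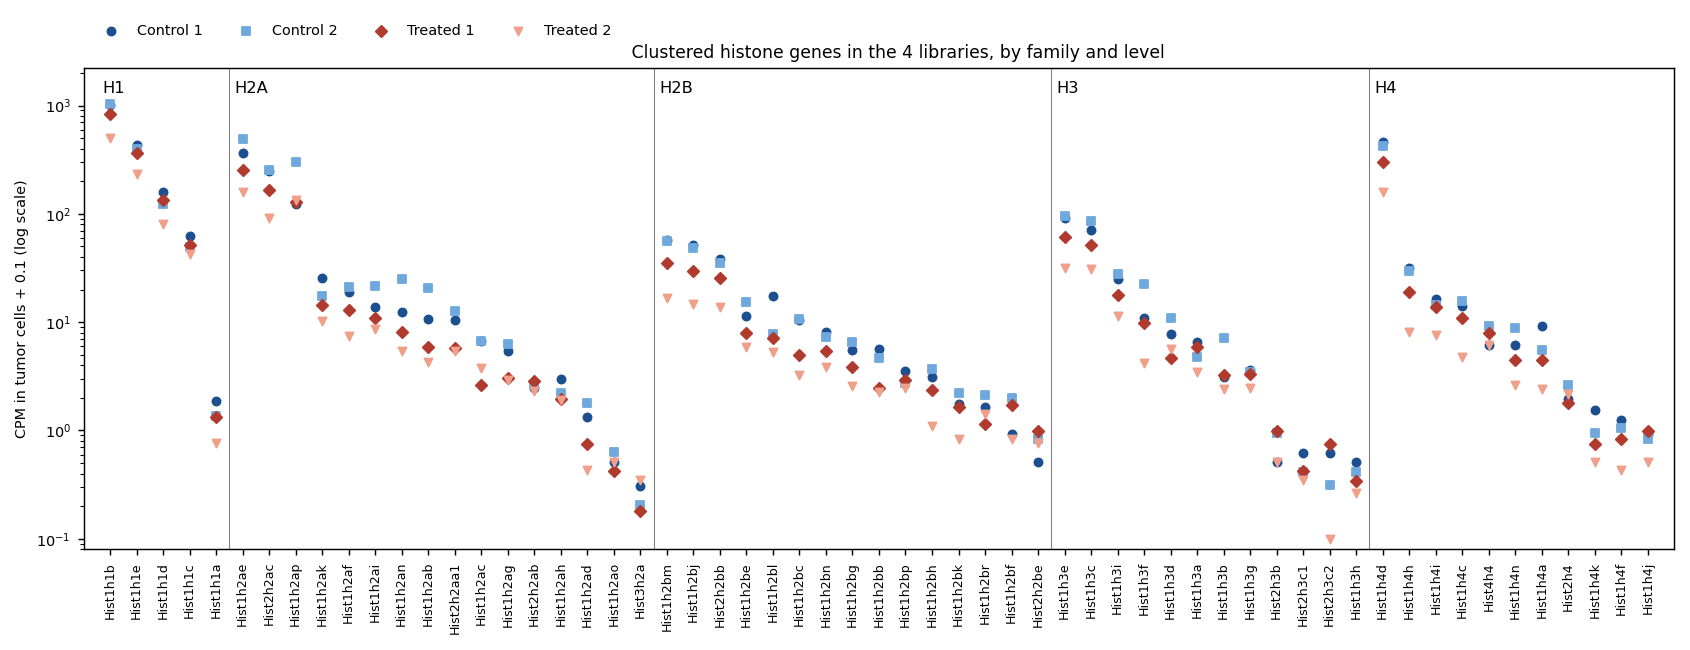
Level of each of the 59 members in the tumor cells of each library (points, CPM plus 0.1, log axis), ordered within family by mean level. Levels within H1, H2A, H3 and H4 span over 2 orders of magnitude, and for most members Treated 2 is the lowest of the 4 points.

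The first comparison asked which histone genes differed between the tumor cells of SP11-treated and control mice. The 59 members together stood at 3500 and 3752 CPM in the controls, against 2660 and 1648 CPM under SP11. The groups did not overlap, and the ratio of the treated to the control mean was 0.594, with a range of 0.454 to 0.734 when 1 library was left out. By family, this ratio was 0.686 for H1, 0.518 for H2A, 0.490 for H2B, 0.523 for H3 and 0.529 for H4. In edgeR's quasi-likelihood test over all genes, 26 of the 50 members that passed the filter on low counts were lower in the treated libraries at an adjusted p under 0.05 and 0 were higher, against 0.501% of all 11588 genes lower and 1.81% higher. The 0 higher members were also 0 at an unadjusted p under 0.05 and 0 in DESeq2. The filter passes a gene with few UMIs more readily where 1 group is high, so the sign of the change was counted without it. There, 58 of 59 members had a negative log2 fold change, Hist2h2be being the exception, with a median of -0.98 against 0.0437 over all genes. With the filter all 50 were negative, with a median of -1.04 against -0.0039. Scaled by library totals alone, without the TMM factors, the median of all genes moved to 0.124 and 49 of the 50 were negative, Hist2h2ab being the exception. The 9 members that did not pass the filter were Hist1h2ao, Hist3h2a, Hist2h2be, Hist2h3b, Hist2h3c1, Hist2h3c2, Hist1h3h, Hist1h4k and Hist1h4j. Normalized values of both treated libraries lay below both controls in 43 of the 50 members and in 47 of all 59, against 22.0% of all genes tested.

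The number of members lower under SP11 depended on the libraries and the test. Without Control 1 it was 17, against 0.423% of all genes, and without Control 2 it was 7, against 0.0733%. Without Treated 1 it was 36 (0.902% of all genes) and without Treated 2 it was 23 (0.677%). DESeq2 called 7 of 59, against 0.338% of all genes. Treated 2 was the lowest of the 4 libraries for 44 of the 50 members, and the median ratio of Treated 2 to Treated 1 was 0.637. The controls were closer, with a median ratio of Control 2 to Control 1 of 1.05, although 8 members differed over 1.5-fold in the direction of Control 2, and Hist1h2bl stood at 0.442 times its Control 1 level in Control 2. The marker sums of other cells given above moved with the groups in the same libraries. With the 4 hemoglobin genes left out 26 members were lower, against 0.509% of all genes, and without the cells that held 5 or more UMIs of the non-erythroid markers (1.66% and 3.03% of control and 18.6% and 25.1% of treated tumor cells) 24 of 49 were, against 0.482%.

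**Figure D2:**
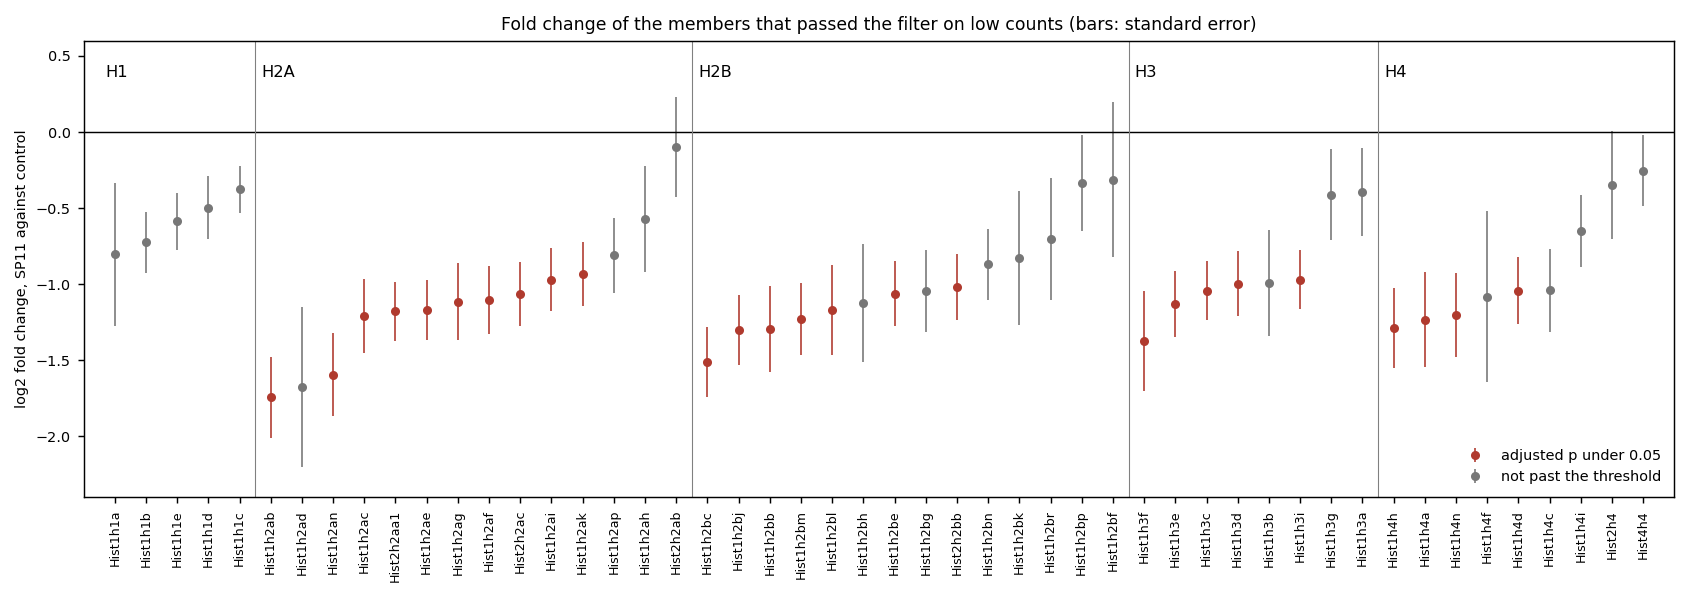
Log2 fold change of SP11 against control for the 50 members that passed the filter on low counts, with standard errors (bars) from edgeR, grouped by family. Red points passed an adjusted p of 0.05, and all 50 points lie below 0, with no red point among the H1 genes.

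The 5 H1 genes, which encode linker histones, included 0 called by edgeR in the main fit. There, 4 had an unadjusted p under 0.05, against 14.6% of all genes, and DESeq2 called 0. The median log2 fold change of the family was -0.59. In other settings, Hist1h1b, Hist1h1d and Hist1h1e were called in 4, 2 and 3 of 17, a replicate block among them. Hist1h1b had 1015 and 1028 CPM in the control libraries against 836 and 497 under SP11 (log2 fold change -0.73, SE 0.20, edgeR adjusted p = 0.0774). Hist1h1e had 433, 395, 364 and 232 in the same order (-0.59, SE 0.19, edgeR adjusted p = 0.133). Hist1h1d had 158, 123, 135 and 80.2, so that Treated 1 lay between the controls. Hist1h1b and Hist1h1e did not overlap between the groups, yet Treated 1 was closer to the controls than to Treated 2 for both. H1 made up 47.7% and 42.6% of the histone UMIs of the controls and 52.2% and 51.7% of those of the treated libraries. Whether H1 differed from the core histones in its change was not tested.

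Of the 14 H2A genes tested, 10 were lower under SP11, with a family median of -1.11. Hist1h2ae, which led the family, had 368 and 487 CPM in the control libraries against 252 and 158 under SP11 (log2 fold change -1.17, SE 0.20, edgeR adjusted p = 0.00289). Hist2h2ac of the chromosome 3 cluster had 248, 254, 167 and 91.2 (-1.07, SE 0.21, edgeR adjusted p = 0.0101). In both genes each treated library lay below each control. Hist1h2ap had 124, 300, 129 and 133 (-0.81, SE 0.25, edgeR adjusted p = 0.113). Here only Control 2 stood out, at 2.42 times Control 1 and above the other libraries. The largest change of the 50 members tested was that of Hist1h2ab, at 10.7, 20.5, 5.86 and 4.20 (-1.74, SE 0.27, edgeR adjusted p = 0.00138). Among the called members Hist1h2an followed at 12.2, 24.8, 7.98 and 5.28 (-1.59, SE 0.27). Both also differed between the controls, with Control 2 the higher. Hist1h2ac stood at 6.63, 6.54, 2.52 and 3.71 (-1.21, SE 0.24) and Hist2h2aa1 at 10.3, 12.6, 5.70 and 5.28 (-1.18, SE 0.19). These pairs of controls lay close together, well above the treated libraries. The smallest change was that of Hist2h2ab, at -0.10.

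Among 14 H2B genes tested, 7 were lower and the median was -1.05. Hist1h2bm had 56.9 and 55.5 CPM in the control libraries against 35.2 and 16.6 under SP11 (log2 fold change -1.23, SE 0.24, edgeR adjusted p = 0.00849). Hist1h2bj, whose start faces that of Hist1h2ag, had 51.8, 48.6, 29.5 and 14.6 (-1.30, SE 0.23). Hist2h2bb had 37.9, 35.1, 25.3 and 13.7 (-1.02, SE 0.22). The 3 leading H2B genes thus had near-equal controls, with Treated 1 below them and Treated 2 lower again. Hist1h2bc had 10.4, 10.7, 4.88 and 3.13 (-1.51, SE 0.23) and Hist1h2bb 5.60, 4.54, 2.36 and 2.14 (-1.29, SE 0.28). Hist1h2bl had 17.4, 7.70, 7.0 and 5.19 (-1.17, SE 0.30, edgeR adjusted p = 0.0492), where Control 2 lay near Treated 1.

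Of 8 H3 genes tested, 5 were lower, with a median of -0.99. Hist1h3e had 91.5 and 94.7 CPM in the control libraries against 60.4 and 31.5 under SP11 (log2 fold change -1.13, SE 0.22, edgeR adjusted p = 0.00827). Hist1h3c had 70.4, 86.1, 51.3 and 30.8 (-1.04, SE 0.20) and Hist1h3i 25.1, 27.7, 17.8 and 11.4 (-0.97, SE 0.19). The treated libraries lay below the controls in each. Hist1h3f had 10.8, 22.5, 9.68 and 4.12 (-1.37, SE 0.33, edgeR adjusted p = 0.0347), with Treated 1 just under Control 1. Hist1h3d had 7.67, 10.8, 4.56 and 5.52 (-1.0, SE 0.21).

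Of 9 H4 genes tested, 4 were lower, with a median of -1.04. Hist1h4d had 456 and 426 CPM in the control libraries against 302 and 160 under SP11 (log2 fold change -1.04, SE 0.22, edgeR adjusted p = 0.0159). Hist1h4h had 31.3, 29.9, 19 and 8.08 (-1.29, SE 0.26). Both had close controls and separate treated libraries. Hist1h4a had 9.02, 5.49, 4.39 and 2.31 (-1.23, SE 0.31, edgeR adjusted p = 0.0491), and Hist1h4n had 6.12, 8.65, 4.39 and 2.56 (-1.20, SE 0.28). Hist1h4i had 16.4, 14.2, 13.7 and 7.50 (-0.65, SE 0.24, edgeR adjusted p = 0.202), with Treated 1 beside the controls.

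Many members encode the same protein, and their reads can be hard to tell apart. Translated from the GENCODE transcripts, the 59 members encode 27 distinct proteins, and 38 members share their protein with another member. All 11 H4 genes encode 1 protein and 9 H2A genes another. Of the 12 H3 genes, 11 fall into groups of 7 and 4 with identical proteins, and Hist2h3c1 stands apart. No H1 gene has an identical partner. Stretches of 90 bases were compared with the annotated transcripts of every other gene. By this measure 100% of those of Hist1h1b and 99.1% of those of Hist1h4d were unique, against 68.1% for Hist1h2ae and 7.63% for Hist1h2ap. A read that fits several genes is not counted by Cell Ranger, so the levels of close copies are uncertain, as are those of the 7 members that overlap another gene on the same strand, Hist1h1e with Hist1h2be among them, and of the 18 that overlap one on the other strand. Copies of 1 protein differed widely in level, 468-fold from Hist1h4j to Hist1h4d among the H4 genes and 753-fold from Hist1h2ao to Hist1h2ae among the 9 H2A genes.

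Summing identical copies left the direction in place. Of 24 sums and single genes tested, 13 were lower under SP11 and 0 higher, against 0.389% of all rows in that fit lower and 1.83% higher. The H2A group of 9 stood at 542 and 868 CPM in the control libraries against 412 and 317 under SP11 (log2 fold change -1.07, SE 0.19, edgeR adjusted p = 0.0045). The H4 group of 11 stood at 544, 514, 366 and 195 (-1.03, SE 0.22, edgeR adjusted p = 0.0161). The larger H3 group, led by Hist1h3e, stood at 184, 222, 131 and 74.7 (-1.09, SE 0.20, edgeR adjusted p = 0.00576). For H2B, the group of Hist1h2bl, Hist1h2bn, Hist1h2bj and Hist1h2bf stood at 78.2, 65.4, 43.4 and 24.3 (-1.20, SE 0.21, edgeR adjusted p = 0.00331). In all of these sums each treated library lay below each control.

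The H2A and H2B genes of a divergent pair had unlike levels. In 5 of 10 pairs the H2A gene was the higher in all 4 libraries, and in 1 the H2B gene was. Hist1h2ae had 63.9 to 75.6 times the UMIs of Hist1h2bg in the 4 libraries, although their starts lie 176 bases apart. In contrast, Hist1h2ag had 0.0994 to 0.192 times the UMIs of Hist1h2bj. The log2 fold changes within these pairs were -1.17 and -1.04, and -1.11 and -1.30.

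The change under SP11 was also described by features of the genes. The median log2 fold change was -0.97 for the 9 tested members with no annotated 3′ UTR, -1.09 for the 24 with one under 200 bases and -1.04 for the 17 with a longer one. It was -0.97 for the 7 tested members with under 20% unique stretches of sequence and -1.04 for the 27 with 60% or more. By position, it was -0.93 for the chromosome 13 cluster that holds Hist1h1b, -1.06 for the one that holds Hist1h4d and -1.02 for that of chromosome 3. These medians are descriptions, with no test between them.

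The second comparison asked how the members vary over the cell cycle, in tumor cells called by Seurat's S and G2M gene lists, which hold no clustered histone gene. By the larger score, S was called in 16% and 9.85% of the control and 14.2% and 17.2% of the treated tumor cells, G2M in 72.0%, 81.6%, 75.1% and 68.9%, and G1, where neither score was above 0, in 12.1%, 8.52%, 10.7% and 13.9%. These calls are ranges of a score, and 21.2% to 25.4% of the cells lay within 0.05 of a cut. Histone RNA was far higher in S-called than in G1-called cells. In edgeR with the library as a block, 28 of 35 members that passed the filter were higher in S and 0 lower, with a median log2 fold change of 2.09, against 6.14% of all genes higher and 3.97% lower. Without the filter on low counts, 31 of 59 were higher, against 2.74% of all genes. There, 53 log2 fold changes were positive and 6 negative, with a median of 1.95 against -0.0038 over all genes. Of the 0 lower members, 0 were lower at an unadjusted p under 0.05 in either fit, and DESeq2 was not run on this comparison.

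The size of the rise was described by family. H1 rose in 4 of 4 tested (median 1.64), H2A in 10 of 10 (median 2.58), H2B in 6 of 8 (median 2.24), H3 in 5 of 6 (median 1.84) and H4 in 3 of 7 (median 0.66). Hist1h1b had 139, 162, 143 and 54.1 CPM in the G1-called cells of the 4 libraries, and 1033, 989, 953 and 453 in the S-called cells (log2 fold change 2.76, SE 0.07, edgeR adjusted p = 2.87e-53). Hist1h2ae had 54.2, 85.0, 48.5 and 19 in G1 and 392, 456, 273 and 141 in S (2.60, SE 0.10, edgeR adjusted p = 2.39e-39). Both were at least 5 times as high in S as in G1 in every library. Hist1h4d had 207, 226, 161 and 96.2 in G1 and 423, 373, 275 and 131 in S (0.72, SE 0.07, edgeR adjusted p = 1.82e-14). Hist1h3e moved by a like amount (0.93, SE 0.16), whereas Hist1h3c, which encodes the same protein, moved by 2.38 (SE 0.21). The differences between members in this rise were not tested.

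**Figure D3:**
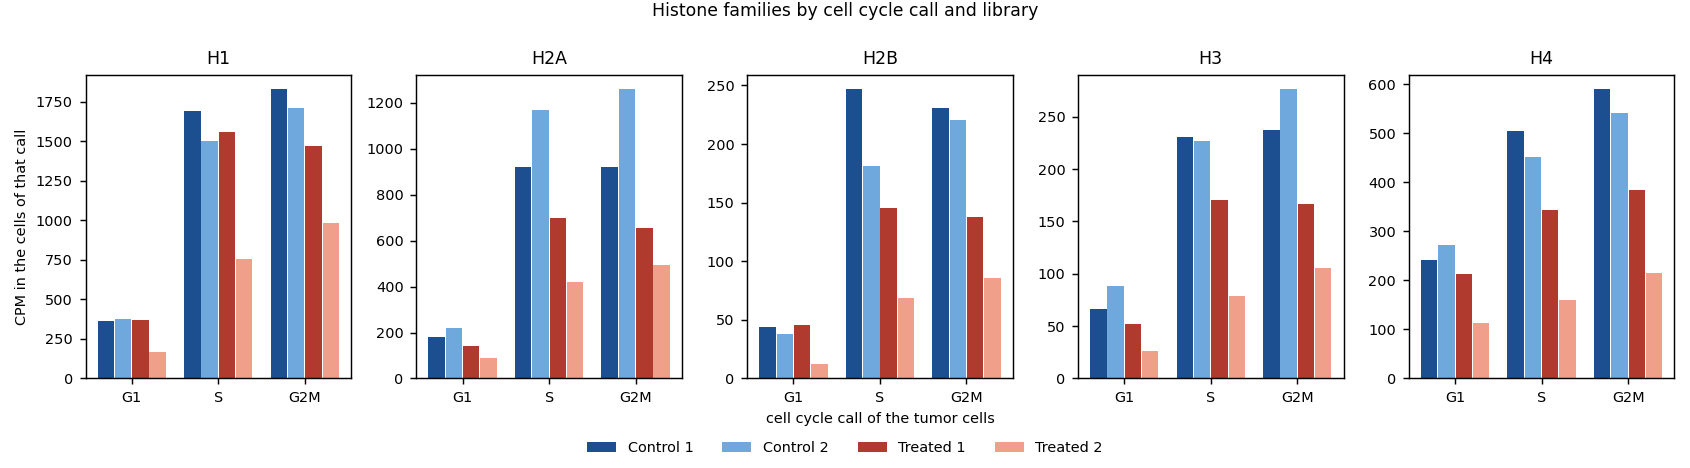
Summed level of each histone family (CPM of the cells in that call, bars from 0, with a separate scale for each panel) in G1-, S- and G2M-called tumor cells of the 4 libraries. In all 5 families and all libraries the S bar is higher than the G1 bar, and H4 has the smallest rise relative to its G1 level.

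Between G2M-called and S-called cells the answer hung on where the scores were cut. With the scores as they are, 3 members, Hist1h1e, Hist1h4d and Hist2h2bb, were higher in G2M and 0 lower, against 4.42% of all genes higher and 3.72% lower. Each score was then centered over all tumor cells and divided by its standard deviation, which called S in 40.6% to 44.7% of the cells. With these centered scores, 35 of 45 members were lower in G2M than in S, against 8.26% of all genes. Along the scores themselves, the summed histone level of the 59 members rose from the lowest to the highest quintile of the S score, from 804 to 5744 CPM and from 966 to 5873 CPM in the controls, and from 934 to 4313 CPM and from 385 to 2793 CPM in the treated libraries. Along the G2M score it peaked in the next to highest quintile, at 5691, 5884, 3909 and 2737, and stood at 2232, 2226, 1472 and 1215 in the highest quintile. These profiles are descriptions over cells of the same libraries.

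**Figure D4:**
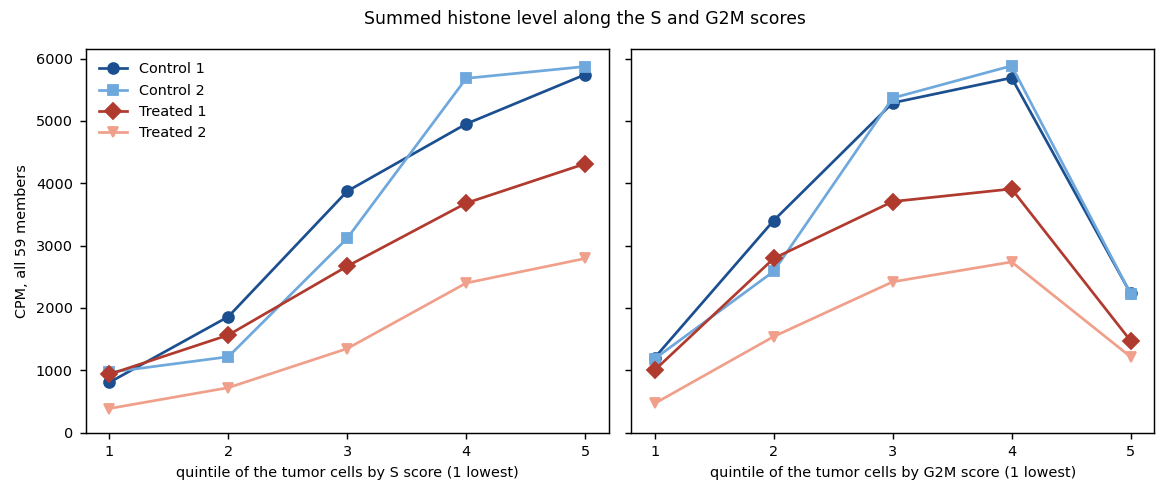
Summed level of the 59 members (CPM) in quintiles of all tumor cells by S score (left) and G2M score (right), 1 line per library. The level climbs at every step along the S score in all 4 libraries, and along the G2M score it drops in the last quintile of every library.

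Because the libraries differ in their calls, SP11 was also compared with control among S-called cells alone. Here the 59 members together stood at 3594 and 3525 CPM in the control libraries against 2918 and 1480 under SP11, a ratio of 0.618. Of 31 members tested, 8 were lower and 0 higher, against 0.335% of all genes lower and 0.496% higher, and the 31 had a median log2 fold change of -0.97. All 31 were negative, but without the filter on low counts 52 of 58 were and 6 were positive, and without Treated 2 32 of 37 were negative. The median moved to -0.54 without Treated 2 and to -1.52 without Treated 1. The 8 were Hist1h2ae, Hist1h2an, Hist2h2ac, Hist1h2bj, Hist1h2bm, Hist1h3c, Hist1h3e and Hist1h4d, all of them among the 26 lower over all tumor cells, of which 21 were tested here. Hist1h2ae fell by 1.11 on the log2 scale (SE 0.19, edgeR adjusted p = 0.000279), Hist1h4d by 1.06 (SE 0.19, edgeR adjusted p = 0.00108), while Hist1h1b had a log2 fold change of -0.60 (SE 0.19, edgeR adjusted p = 0.219). Without Treated 2 the count was 0, against 0.0118% of all genes, and in DESeq2 it was 0, with 9 and 6 members lower at an unadjusted p under 0.05. In DESeq2, 1.84% of all genes were at that unadjusted threshold. With centered scores 20 of 49 were lower, against 0.449% of all genes. The rise from G1 to S itself was tested for a difference between SP11 and control. It passed in 0 of 35 members, against 0.0574% of all genes higher and 0% lower. In the same edgeR fit, 1 of the 35 was at an unadjusted p under 0.05, against 5.28% of all genes.

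Within single cells, a histone UMI was found in most tumor cells. After each cell was thinned to 5000 UMIs, which left out 46, 17, 105 and 7 shallower cells, at least 1 histone UMI was found in 98.0% of the cells of Control 1 (exact Clopper-Pearson interval at 95%, 96.8% to 98.9%). In Control 2 this share was 97.5% (95.7% to 98.6%), in Treated 1 it was 97.1% (96.0% to 98.0%), and in Treated 2 it was 89.0% (86.2% to 91.5%). Only counting error is in these intervals. Unthinned, the shares were 99.9%, 100%, 97.9% and 99.0%. The difference of the group means was -4.64 percentage points, carried by Treated 2, and 2 against 2 libraries cannot go below p = 0.33 in an exact two-sided permutation test. By family in the same order, a UMI of an H1 gene was present in 87.7%, 85.3%, 87.7% and 73.9% of the thinned cells, and one of an H2B gene in 48.4%, 48.5%, 40.1% and 25%. As a background, unthinned cells gated by B markers had a histone UMI in 38.7% of 124 cells in Treated 1 and 37.0% of 108 in Treated 2. For cells gated by T and NK markers it was 41.7% of 12 and 35.7% of 56. Cells gated by macrophage markers had a histone UMI in 27.7% of 159 cells in Treated 1 (median 994 UMIs) and 34.4% of 96 in Treated 2 (median 2031.5). These shares lay below the tumor cells of the same libraries but at lower depth. In the controls few cells gated by macrophage markers were found. A histone UMI was present in 87.5% of 16 in Control 1 (median 1539 UMIs, exact interval 61.7% to 98.4%) and in 100% of 9 in Control 2 (median 2072 UMIs, exact interval 66.4% to 100%). The macrophage share is thus below that of the unthinned tumor cells in Control 1 but not in Control 2. Tumor cells had medians of 10935 and 17214 UMIs there, and shares at unlike depth cannot tell background from expression. In CPM over all members, macrophage-gated cells held 1722 and 1546 in the controls (48 and 29 histone UMIs) and 284 and 237 under SP11. The tumor cells held 3500, 3752, 2660 and 1648. B-gated cells held 1552 and 291 under SP11, T- and NK-gated cells 743 and 527. No expression is therefore read from the share of cells with a UMI in any library.

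The number of histone UMIs per thinned tumor cell had a median of 10 and 11 in the control libraries, 10 and 5 in the treated ones. Cells with 8 or more histone UMIs made up 54.8%, 58.1%, 54.1% and 39.8% of the libraries, and their median was 28, 28, 20 and 15. The cut of 8 is a range on a continuous count, and 11.4% to 13.9% of the cells lay near it. In Treated 1 the share of such cells was thus close to that of the controls while their median was lower, and in Treated 2 both values were below those of the other libraries. Over cells, H1 and H2A counts had a Spearman rho of 0.81, 0.79, 0.75 and 0.70, and H3 and H4 counts one of 0.46, 0.45, 0.32 and 0.16, in 799, 511, 1151 and 575 cells that share library and depth. The counts per cell behind the values of Treated 2 are the lowest of the 4 libraries.

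**Figure D5:**
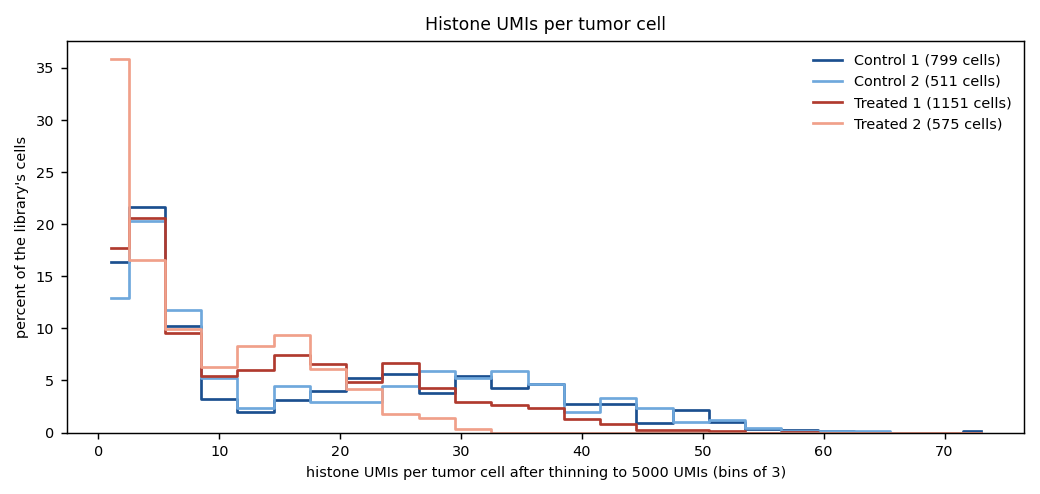
Share of each library's tumor cells (percent) by number of histone UMIs after thinning each cell to 5000 UMIs, in bins of 3, 1 line per library. Control 1 and Control 2 extend to 73 and 63 UMIs in a cell, Treated 1 to 59 and Treated 2 to 31.

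Other genes of histone supply were set beside the members. None of the lists held a gene called between SP11 and control, by edgeR or DESeq2, where 0.501% of all genes were lower and 1.81% higher in edgeR, so that lists of this size would hold few called genes at the share of all genes. At an unadjusted p under 0.05 the share of all genes was 14.6%. Replacement histones, which are also made outside S phase, mostly from polyadenylated mRNA, had 0 of 9 tested called. Of these, 2 were at an unadjusted p under 0.05, and the median was -0.18. H2afz stood at 1150, 1134, 1040 and 1169 CPM. Factors that transcribe histone genes or process their 3′ ends had 0 of 21 called (2 unadjusted, median -0.05), and Slbp, the stem-loop binding protein, stood at 104, 109, 94.2 and 123. Its levels overlapped between the groups. Histone chaperones, which carry histones to DNA, had 0 of 25 called (6 unadjusted, median 0.00), the S list 0 of 43 (5 unadjusted, median -0.09) and the G2M list 0 of 53 (6 unadjusted, median -0.06).

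From G1-called to S-called cells, 14 of 25 chaperones rose and 0 fell, against 6.14% of all genes higher and 3.97% lower, and 11 of the 21 outside the lists that called the phases rose. Among the 14 were Asf1b (log2 fold change 2.58, SE 0.22), Tonsl (1.84, SE 0.35) and Chaf1b (1.56, SE 0.13), a subunit of chromatin assembly factor 1. Of the replacement histones, H2afx, H3f3b and H2afz rose, by 1.18, 0.23 and 0.16, and Cenpa, the centromere histone, fell by 0.75. Of the transcription and processing list, Casp8ap2, Pou2f1 and Slbp rose, by 1.06, 1.03 and 1.02, and Lsm10 fell by 0.54. Slbp, Casp8ap2, Chaf1b and Nasp are in the S list and Cenpa, Hjurp and Anp32e are in the G2M list that called the phases, so their changes are not independent of the calls.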

How the data were processed

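Raw UMI counts per gene and barcode of 2 control and 2 SP11 libraries were used as the authors deposited them, made with Cell Ranger 7.1.0 per the file headers, with no normalization. The submitters' processing notes name mm10, whereas the study's methods name hg38 for the single-cell work. Members, gene lists and tests were chosen with earlier results of these data known. The study's methods test single cells, but cells of 1 library are not replicates, so UMIs were summed per library over tumor cells (9477943 to 12287495 UMIs) and tested over all genes in edgeR 4.0.16 (R 4.3.3) by the quasi-likelihood test, with TMM, filterByExpr and Benjamini-Hochberg adjustment at 0.05, a step tested on simulated data. Phase sums (G1, S, G2M) were fitted with the library as a block, after scoring with the gene lists of Seurat 5.3.0 in Python 3.11.15, with scanpy 1.11.5 for Scrublet doublet calls, which were kept in the main results. With other random seeds Scrublet marked 814 or 827 of 916 cells in Control 1, so a seed that marked 47 was taken. Sequences came from GENCODE M21 and RefSeq. Named in every library were the 3 members of each family with the highest mean level, up to 5 called members per direction and family by size of change, 1 group of identical copies per family that has one, and up to 3 called genes per list and direction. Alternatives were DESeq2 1.42.0, scaling without TMM, other cell, keratin and count limits, doublet removal, thinning, other phase cuts, a replicate block, and each library left out. Whether counting used strand is not given in the sources used here, so antisense partners cannot be told apart. No column of per-sample values was left unmapped.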

Additional observations from a re-analysis of the deposited data

How the results depend on the processing

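Over all tumor cells, the count of 26 lower members was 7 in DESeq2 (0.338% of all genes), 12 with every cell thinned to 5000 UMIs (39 members tested, 0.463% of all genes), 13 with identical proteins summed (24 rows tested, 0.389%), and 7 to 36 with 1 library left out (0.0733% to 0.902%), where the group left with 1 library was assumed to vary like the other. In the 10 other settings without a block it was 22 to 31, against 0.239% to 0.953% of all genes. Among 441 comparisons of the 26 named members with their main result, 360 kept their side of the threshold, 64 lost it, 17 gained it and 0 turned direction, and only Hist1h2ab kept its call in all 17 settings. The ratio of the summed level stayed between 0.454 and 0.734 in all settings run. The 28 members higher in S than in G1 were 17 with phases called in thinned cells (20 tested, 3.89% of all genes) and 25 to 28 with 1 library left out (4.65% to 5.61%). Of G2M against S, the 3 higher members were 0 in cells with clear scores, 0 with centered scores and 0 with thinned cells. Without a filter on low counts they were 7, against 2.37% of all genes. The 0 lower members were 14, 35 and 1 in the first 3 of these settings (4.48%, 8.26% and 1.19% of all genes) and 0 without the filter. When 1 library was left out, 2 to 4 were higher, against 3.12% to 3.73% of all genes, and 0 were lower. Among S-called cells, the 8 lower members were 0 in DESeq2 (10 of 8009 genes over all), 20 with centered scores (0.449% of all genes) and 0 to 11 with 1 library left out (0.0118% to 0.279%), the 0 being without Treated 2. The difference in the share of cells with a histone UMI was -9.75 percentage points at 2 or more UMIs in place of -4.64. The cause of these shifts was not tested, beyond fewer genes or samples tested where stated. Centered scores, the sums of identical proteins, the limits on non-erythroid markers and leaving out the hemoglobin genes were chosen after seeing the data. The study's methods speak of independent sets of control and treated samples. However, no label or method says that a replicate number marks such a set. The deviations of same-numbered libraries from their group means had a correlation of 0.13. With 2 libraries per group, both pairs give this same value by construction, so it is a single value and cannot decide on pairing. With the replicate number as a block (pairing), 38 members were lower over all tumor cells (384 against 58 of all genes) and 13 among S-called cells (1.08% of all genes). The block added calls for all 5 named members not called in the main fit. These are Hist1h1b (log2 fold change -0.79, edgeR adjusted p = 2.47e-10), Hist1h1d, Hist1h1e, Hist1h2ap and Hist1h4i. In that order they were called in 4, 2, 3, 6 and 2 of the 17 settings, the block included. Leaving out tumor cells with 3 or more UMIs of any other marker, with or without the keratin limit, could not be fitted, since 0 to 2 treated cells remained, and sums over RefSeq proteins were not run. Members with few UMIs limit what the depth can show, and 9 of 59 could not be tested.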
